A study of Homo sapiens with 9 samples.

Results

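The genes described here are 35 listed components of endoplasmic reticulum (ER) protein folding and the unfolded protein response, matched by symbol to the deposited count table; the rule uses no measured value, although the list was drawn up with earlier results of these data known. Of these, 34 had a row among the 15983 genes of the table, and all 34 were among the 12665 genes that passed the filter on low counts; DERL3 was not analysed here. RNA was sequenced from KGN cells, a line derived from a human granulosa cell tumour and labelled wild type, after 12 h of fasting and 72 h in solvent (control, 3 libraries), in 0.5 µg/ml insulin (lower dose, 3 libraries) or in 1 µg/ml insulin (higher dose, 3 libraries). The medium given for growth was DMEM with serum, all groups were fasted, and all 9 libraries come from this 1 tumour-derived line.

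Proteins bound for secretion or for membranes enter the ER through the Sec61 channel, are folded by chaperones of the Hsp70 and Hsp90 families, by sugar-binding lectin chaperones and by disulfide isomerases, and are sent back to the cytosol for degradation when they fail to fold. When unfolded protein accumulates, the sensors ATF6, IRE1 (gene ERN1) and PERK (gene EIF2AK3) are released or activated, and the transcription factors ATF6, spliced XBP1 and ATF4 raise the chaperone, degradation and recovery genes. Granulosa cells secrete hormones, extracellular matrix and follicular fluid proteins through this route. Gene-level counts report the amount of each transcript; they do not resolve the splicing of XBP1 or the activity of the sensor proteins.

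Library totals ran from 18965722 to 20446405 counts. Libraries are called control 1, lower dose 1 and so on, after group and replicate. Nothing in the labels states that replicates are separate cultures, and all p-values therefore refer to the spread among these 9 libraries, part of which may be technical. The chi-square per degree of freedom between replicates ran from 2.19 to 8.46, and the 2 largest values, 8.01 and 8.46, both involved lower dose 1. Of the granulosa markers, 12 of 13 passed the filter. Among them FOXL2, FSHR, AMH and CYP19A1 had 4720, 3266, 2238 and 1497 counts over the 9 libraries. NR5A2, HSD17B1 and INHA passed with only 158, 131 and 118 counts, and AMHR2 had 34 counts in all. The theca markers CYP17A1, INSL3 and LHCGR had 1 count each over the 9 libraries. Of the epithelial list 5 of 6 passed the filter, EPCAM having 7 counts. Of 5 blood and immune genes with a row, CD68 (10442 counts) and PTPRC (322) passed, while CD14 had 28, LYZ 5 and HBB 1. Of 4 endothelial genes with a row, KDR (3289 counts) and VWF (228) passed, while PECAM1 had 53 and CDH5 3. Of the keratins only KRT18 was abundant, at a mean of 1756 counts scaled to the library total (CPM). KRT8, KRT7 and KRT19 stood at 55.1, 21.6 and 4.01 CPM. Of 6 fibroblast and smooth muscle markers 5 passed the filter. The summed level of the 6 was 9390 to 10253 CPM in control and 9045 to 9595 at the higher dose. At the lower dose it was 9579 to 11113, with the highest value in lower dose 1. Most of this sum was COL1A1, at a mean of 9027 CPM over all libraries and 10245 CPM in lower dose 1. ACTA2, THY1 and PDGFRB had means of 405, 238 and 111 CPM, and DCN and MYH11 of 1.52 and 0.0665 CPM.

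The ER folding genes were among the most abundant transcripts of the cells. Ranked by length-corrected level (FPKM) over the tested genes, 4 members lay in the top 1%, 13 in the top 5% and 16 in the top 10%. The median member stood at 39.5 FPKM, against 6.83 for all tested genes. Together the 34 members took between 1.28% (lower dose 1) and 1.42% (lower dose 3) of the counts of a library.

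Among the chaperones, the lectin chaperone CALR (calreticulin) was the highest, at 1591 ± 39.4 FPKM (SD, n = 9). HSP90B1, the ER member of the Hsp90 family, stood at 648 ± 30.7, and HSPA5 (BiP, the ER member of the Hsp70 family and the usual reporter of ER stress) at 418 ± 25.6 FPKM (SD, n = 9). The membrane-bound lectin CANX (calnexin) was lower than its soluble relative CALR, at 136 ± 7.80 FPKM (SD, n = 9). The HSPA5 partners ranged widely: MANF stood at 97.0 FPKM, the nucleotide exchange factor HYOU1 at 63.4, the J-domain protein DNAJB11 at 44.6 and CRELD2 at 35.8, while SDF2L1 was at 21.7 and the J-domain proteins DNAJB9, DNAJC10 and DNAJC3 were at 9.06, 8.74 and 8.42.

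The disulfide isomerases were uniformly high, with P4HB at 658 ± 19.2, PDIA3 at 245 ± 11.7, PDIA4 at 190 ± 4.72 and PDIA6 at 136 ± 3.83 FPKM (SD, n = 9). In the translocon, SEC61A1, the channel-forming subunit, stood at 173 FPKM, with the small subunits SEC61G and SEC61B at 111 and 93.7. SERP1, which associates with the channel, was at 62.3 FPKM, and the auxiliary factors SEC63 and SEC62 were at 21.7 and 14.9.

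The degradation genes lay between 1.59 and 41.6 FPKM, all below the HSPA5 partners MANF, HYOU1 and DNAJB11. HERPUD1, a membrane component of the degradation complex, stood at 41.6 FPKM, DERL1 at 25.4, the ligase adaptor SEL1L at 19.9, the ubiquitin ligase SYVN1 (HRD1) at 16.3, EDEM1 at 14.5, DERL2 at 7.43 and EDEM2 at 1.59. The stress sensors were scarcer than XBP1 and PPP1R15A, the outputs grouped with them. ATF6 was at 18.0 ± 0.542, EIF2AK3 at 8.51 ± 0.384 and ERN1 at 1.73 ± 0.118 FPKM (SD, n = 9). XBP1, whose mRNA is the substrate of IRE1, reached 99.1 ± 3.83 FPKM (SD, n = 9). PPP1R15A (GADD34), which restores translation after PERK signalling, reached 37.4 ± 2.68 FPKM (SD, n = 9).

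**Figure D1:**
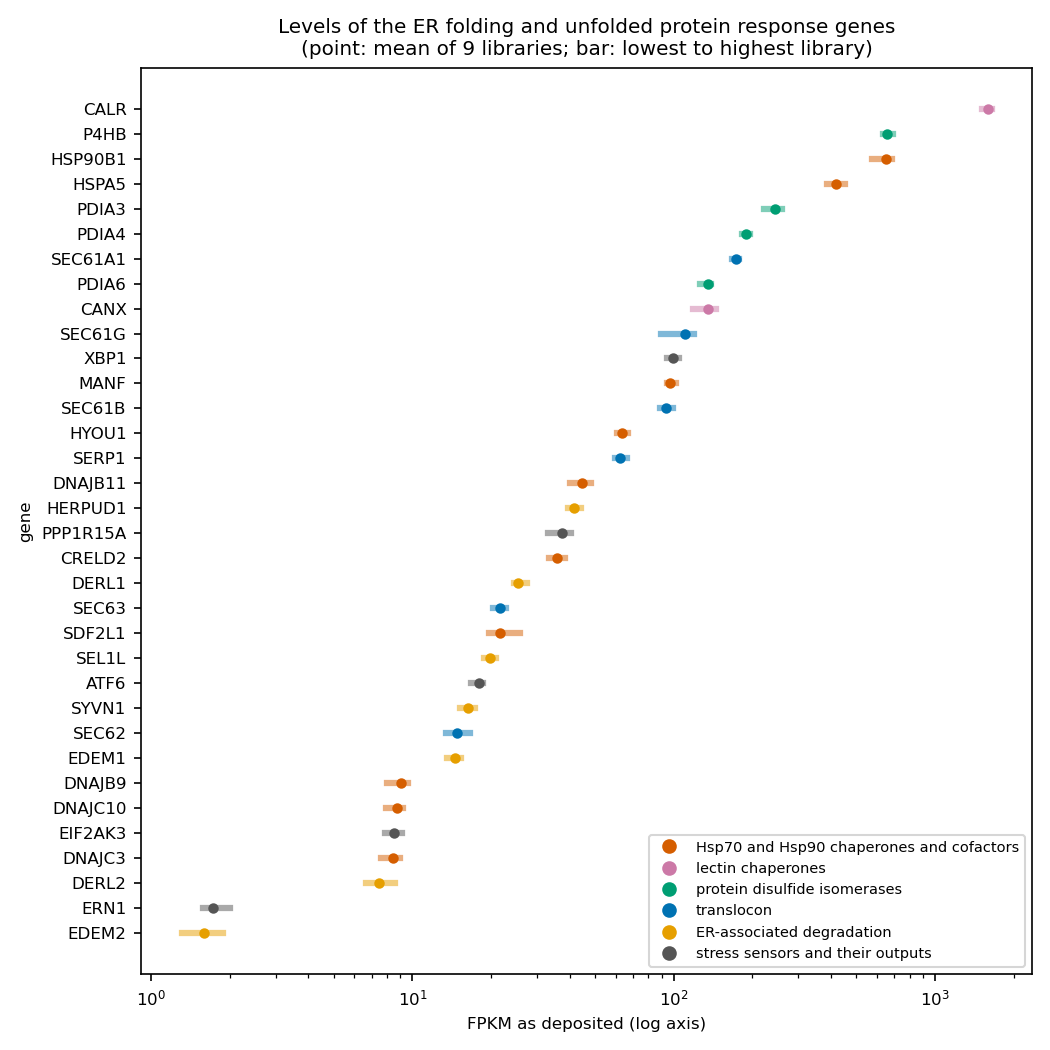
Mean FPKM of each of the 34 genes over 9 libraries (points, log axis), with bars from the lowest to the highest library and colours for roles. CALR, P4HB, HSP90B1 and HSPA5 are the highest 4, and ERN1 and EDEM2 the lowest, at 1.73 and 1.59 FPKM.

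The levels varied little between libraries. The coefficient of variation of CPM over all 9 libraries ran from 2.20% for SEC61A1 to 12.8% for EDEM2, for which counting alone gives 12.9%. For HSPA5 it was 6.28%, against 0.553% from counting, and for HSP90B1 4.60%, against 0.527%. The 3 sensors had a coefficient of variation of 2.80% (ATF6), 4.29% (EIF2AK3) and 6.57% (ERN1).

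At the lower dose no member differed from control after adjustment over all tested genes. The edgeR quasi-likelihood F-test called 0 of 34 members at a Benjamini-Hochberg adjusted p under 0.05, as it called 0 of 12665 genes (0%), and DESeq2 and limma on FPKM also called 0 members. At an unadjusted p under 0.05 there were 2 members (5.88%), against 6.08% of all tested genes; both were lower (3.21% of all genes), and 0 were higher (2.87%). The log2 fold change was below 0 for 20 of 34 members, against 48.1% of all tested genes, with a median of -0.0078 against 0.0045. In bulk RNA, fewer cells of a type and less RNA per cell cannot be told apart.

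The member of smallest p at the lower dose was SEC62, a translocon subunit that assists post-translational import and ER recovery after stress. It was measured at 107, 112 and 121 CPM in control 1 to 3 and at 100.2, 107 and 98.8 CPM in the lower dose libraries, and the highest lower dose library just reached the lowest control. Its log2 fold change was -0.15 ± 0.05 (SE, unadjusted p = 0.0097, edgeR adjusted p = 0.764). At the higher dose SEC62 stood between these, at 113, 108 and 110 CPM, with a log2 fold change of -0.04 ± 0.05 against control.

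The J-domain reductase DNAJC10 was measured at 178, 183 and 185 CPM in control and at 161, 170 and 178 CPM at the lower dose, where lower dose 3 reached the control range. At the higher dose it was at 175, 176 and 179 CPM. Its log2 fold change at the lower dose was -0.10 ± 0.05 (SE, unadjusted p = 0.0475, edgeR adjusted p = 0.792). EIF2AK3 was at 40.003, 41.7 and 41.6 CPM in control and at 40.1, 37.2 and 38.8 CPM at the lower dose (log2 fold change -0.09 ± 0.06). These groups overlapped as well.

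In 2 members the lower dose libraries did not overlap with control, against 10.7% of all tested genes. Both were higher (5.1% of all genes) and 0 were lower (5.61%). P4HB, the catalytic disulfide isomerase that is also a subunit of prolyl 4-hydroxylase, was measured at 1594, 1616 and 1537 CPM in control and at 1625, 1688 and 1686 CPM at the lower dose. Its log2 fold change was 0.07 ± 0.04 (SE, unadjusted p = 0.0932). EDEM2, which trims mannose from misfolded glycoproteins, was at 2.64, 2.52 and 2.97 CPM in control and at 3.32, 3.55 and 3.05 CPM at the lower dose, a log2 fold change of 0.28 ± 0.19. At the higher dose it was at 2.45, 3.23 and 3.25 CPM. Its 95% interval at the lower dose of 0.925-fold to 1.60-fold is the widest among the members.

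Leaving out 1 library changed the count at an unadjusted p under 0.05 for the lower dose. It was 0 without control 3 (3.24% of all tested genes), 3 without control 1 (8.82% of members, 10.4% of all genes) and 3 without lower dose 1 (8.82%, 6.68% of all genes). It was 1 (2.94% of members) without control 2, lower dose 2 or any 1 of the higher dose libraries, where 5.08% to 7.21% of all genes passed. The number of members below 0 was 9 of 34 without lower dose 1 (median log2 fold change 0.026) and 15 without control 1 (median 0.014), so the sign of the median at this dose turned without either library. It was 26 without control 3.

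At the higher dose no member was called either (edgeR adjusted p under 0.05, 0 of 34, and 0% of all tested genes), and DESeq2 and limma on FPKM called 0 members. At an unadjusted p under 0.05 there were 0 members, against 2.35% of all tested genes (1.09% higher and 1.26% lower). Directions leaned one way: 28 of 34 members (82.4%) had a log2 fold change below 0, against 50.2% of all tested genes, with a median of -0.039 against -0.00021. All 10 Hsp70 and Hsp90 chaperones and cofactors, both lectin chaperones and all 4 disulfide isomerases were below 0. The 6 members above 0 were SEC61A1, SEC61B, SEC61G, EDEM1, EDEM2 and ATF6. Leaving out any 1 library gave between 24 and 29 members below 0. Many members varied together across libraries, so their signs are not independent. After each gene's own mean was removed, the median member of a library had a within-group SD of 0.0357 on the log2 scale. This SD was pooled over all 3 groups. The lower dose, which is not part of this comparison, spread most, from -0.043 to 0.057. It is an SD of single libraries, not the error of a difference between group means, so it does not measure the median log2 fold change of -0.039. In control 3 the median member stood at -0.022, below higher dose 1 (-0.0031) and higher dose 2 (-0.013). The count at an unadjusted p under 0.05 was 2 without control 3 (PPP1R15A and HSPA5, both lower; 5.88% of members, 3.09% of all genes) and 1 without higher dose 1 (DNAJB9; 2.94% of members, 2.73% of all genes).

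These differences were small. The edgeR 95% interval of the log2 fold change lay between -0.3 and 0.3 for 33 of 34 members at the lower dose, 32 at the higher dose and 33 between doses. Of all 12665 tested genes, 8425, 8854 and 8528 had such an interval in the same comparisons. EDEM2 was the exception among the members each time, with DNAJB9 at the higher dose. For HSPA5 the interval at the higher dose was 0.874-fold to 1.03-fold.

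HSPA5 was measured at 1787, 1651 and 1540 CPM in control (1659 ± 123, SD, n = 3) and at 1588, 1583 and 1559 CPM at the higher dose (1576 ± 15.7, SD, n = 3). The higher dose libraries lay within the control range, since control 3 was the lowest of these 6. The log2 fold change was -0.07 ± 0.06 (SE, unadjusted p = 0.216). At the lower dose HSPA5 was at 1531, 1746 and 1773 CPM, with a log2 fold change of 0.02 ± 0.06 against control, and lower dose 1 was the lowest of all 9 libraries.

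DNAJB9 (ERdj4), a J-domain cochaperone of HSPA5 and a target of spliced XBP1, had the smallest p at the higher dose. It stood at 23.0, 22.5 and 23.1 CPM in control, at 21.1, 22.9 and 22.1 CPM at the lower dose, and at 22.8, 19.9 and 19.1 CPM at the higher dose. Higher dose 1 was inside the control range and the other 2 were below it. The log2 fold change at the higher dose was -0.15 ± 0.08 (SE, unadjusted p = 0.0661), and without higher dose 1 DNAJB9 passed an unadjusted p of 0.05.

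XBP1 was measured at 191, 184 and 176 CPM in control, at 172, 188 and 186 CPM at the lower dose and at 175, 177 and 172 CPM at the higher dose. Of the higher dose values, 2 were below the lowest control and 1 was just above it, with a log2 fold change of -0.07 ± 0.05 (SE, unadjusted p = 0.142). HERPUD1 was at 123, 124 and 112 CPM in control and at 114, 114 and 114 CPM at the higher dose (log2 fold change -0.06 ± 0.05, unadjusted p = 0.219). SEC61B had the opposite sign, with 53.5, 49.8 and 51.0 CPM in control and 55.7, 54.7 and 53.2 CPM at the higher dose, with 52.5, 50.8 and 54.5 CPM at the lower dose (log2 fold change 0.09 ± 0.06, unadjusted p = 0.154), and these groups overlapped.

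In 2 members, HSP90B1 and CANX, all higher dose libraries were below all controls, against 3.92% of all tested genes; in 0 members were they all above (3.81%), and groups were apart in either direction in 7.73% of genes. HSP90B1 stood at 1829, 1839 and 1798 CPM in control and at 1798, 1782 and 1784 CPM at the higher dose, so its groups nearly touched and the log2 fold change was -0.03 ± 0.05. CANX stood at 715, 722 and 702 CPM in control and at 687, 697 and 687 CPM at the higher dose, with a log2 fold change of -0.05 ± 0.06. At the lower dose both genes spread far more, with HSP90B1 at 1612, 1906 and 1874 CPM and CANX at 619, 755 and 747 CPM in lower dose 1 to 3.

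The sensors differed little between groups. ATF6 was measured at 142, 144 and 141 CPM in control, 134, 143 and 148 CPM at the lower dose and 144, 141 and 145 CPM at the higher dose, and its log2 fold changes were -0.01 ± 0.05 and 0.01 ± 0.05. ERN1 was at 17.9, 18.8 and 21.7 CPM in control, 18.5, 19.1 and 17.2 CPM at the lower dose and 18.3, 19.4 and 18.7 CPM at the higher dose, where only control 3 stood apart. EIF2AK3 was at 40.6, 42.8 and 38.95 CPM at the higher dose, across the control range.

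**Figure D2:**
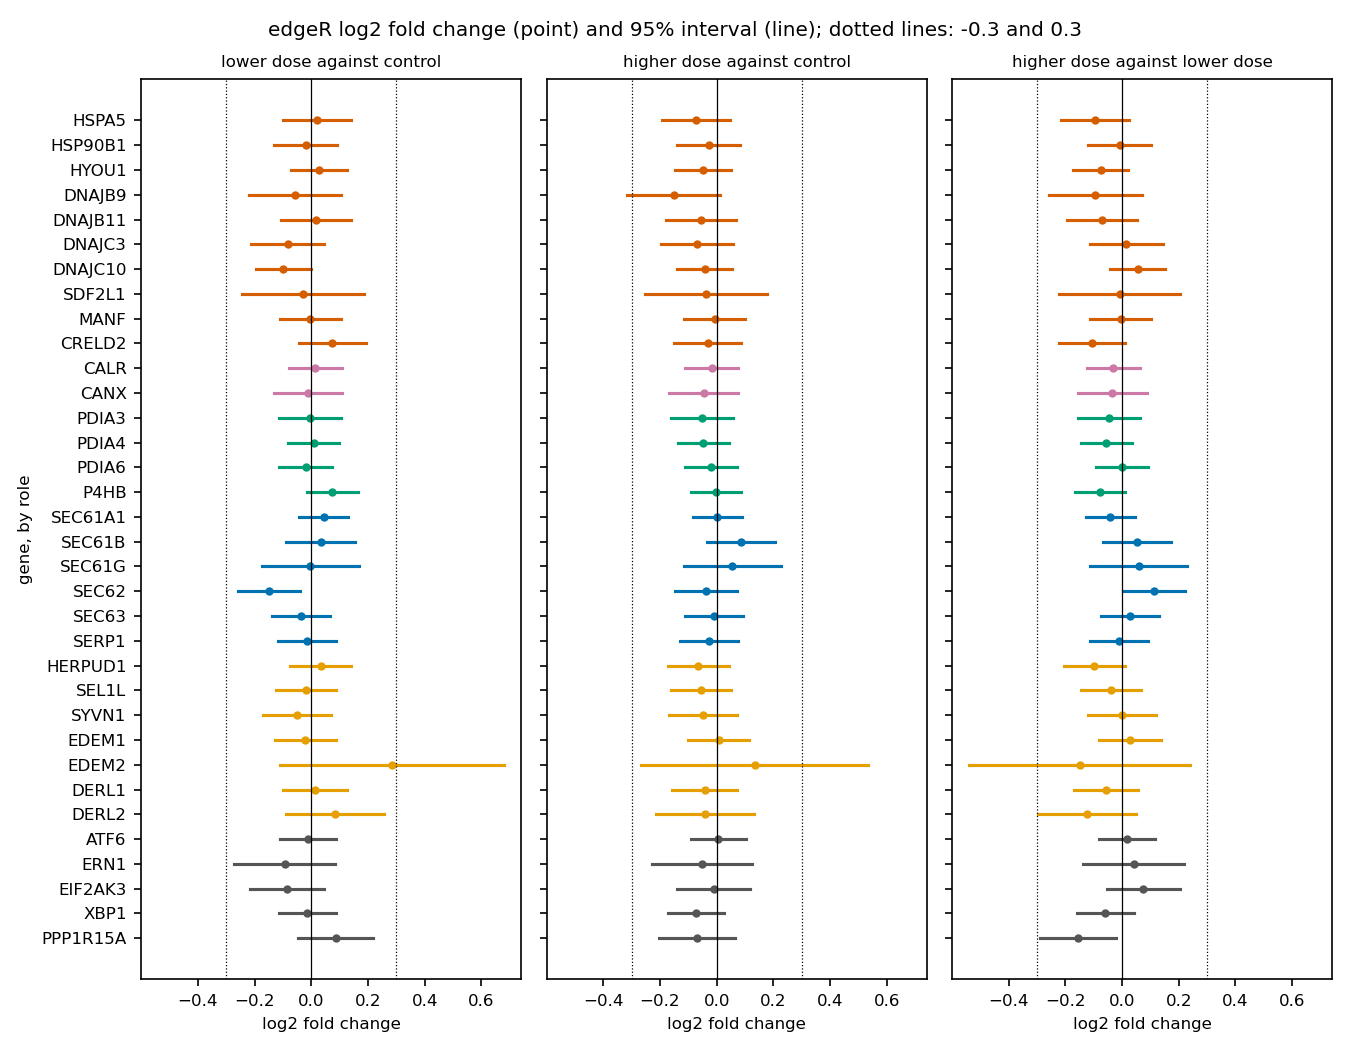
edgeR log2 fold change (point) with its 95% interval (line) for each of the 34 genes in the 3 comparisons, coloured by role, with dotted lines at -0.3 and 0.3. The middle panel is the higher dose against control, where the chaperones, lectins and disulfide isomerases lie below 0 and 28 of 34 points do so in all.

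Between the doses, 0 of 34 members were called (edgeR adjusted p under 0.05, and 0% of all tested genes; 0 members by DESeq2 or by limma on FPKM) and 2 had an unadjusted p under 0.05, against 5.64% of all tested genes. Of these 2, 1 was higher at the higher dose (2.45% of all genes) and 1 was lower (3.19%). PPP1R15A was measured at 88.6, 95.4 and 94.9 CPM at the lower dose and at 85.0, 85.5 and 79.97 CPM at the higher dose, with no overlap and a log2 fold change of -0.16 ± 0.06 (SE, unadjusted p = 0.0238, edgeR adjusted p = 0.85). Control libraries spanned both, at 94.5, 90.8 and 77.5 CPM. SEC62 was above the lower dose in all 3 higher dose libraries (log2 fold change 0.11 ± 0.05, unadjusted p = 0.0433). The edgeR test for any difference among the groups gave SEC62 as the 1 member with an unadjusted p under 0.05, against 4.43% of all tested genes, at an adjusted p of 0.982.

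Groups did not overlap between the doses in 7 members, against 12.2% of all tested genes. SEC62 was the 1 member above (5.85% of all genes), and 6 were lower in every higher dose library (6.31%): PPP1R15A, HERPUD1, CRELD2, P4HB, PDIA4 and DNAJB11. CRELD2 stood at 70.8, 73.2 and 69.03 CPM at the lower dose and 68.0, 67.1 and 63.0 CPM at the higher dose, with 69.3, 69.5 and 63.4 CPM in control (log2 fold change -0.11 ± 0.06), and HERPUD1 at 116, 124 and 127 CPM at the lower dose against 114 in each higher dose library (log2 fold change -0.10 ± 0.05). P4HB was at 1594, 1589 and 1556 CPM at the higher dose, below its 3 lower dose values (log2 fold change -0.08 ± 0.04). The log2 fold change was below 0 for 23 of 34 members, against 50.5% of all tested genes.

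The comparison between doses depended on lower dose 1. Without that library 10 members had an unadjusted p under 0.05 (29.4%, against 7.45% of all tested genes), all lower at the higher dose: HSPA5, CANX, DERL2, PDIA3, PPP1R15A, HERPUD1, HYOU1, P4HB, XBP1 and HSP90B1. None of them passed the adjustment. The smallest adjusted p was that of HSPA5, 0.371 (edgeR, Benjamini-Hochberg), at a log2 fold change of -0.16. The count was 0 without lower dose 3 (5.38% of all genes) or higher dose 3 (3.56%). It was 1 (2.94% of members) without control 2, lower dose 2, higher dose 1 or higher dose 2, where 5.02%, 5.37%, 6.51% and 4.02% of all genes passed.

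Lower dose 1 and the other lower dose libraries lay at opposite ends for these genes. After each gene's own mean was removed, the median member stood at -0.043 in lower dose 1 and at 0.057 and 0.043 in lower dose 2 and 3, on the log2 scale. It was 0.023, 0.020 and -0.022 in control 1 to 3, and -0.0031, -0.013 and -0.036 in higher dose 1 to 3. Of the 34 members, 8 were above their own mean in lower dose 1, 27 in lower dose 2 and 25 in lower dose 3. In the same libraries the median of all tested genes lay within 0.0020 of 0.

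Single genes show the size of this gap. CALR was measured at 2913 CPM in lower dose 1 and at 3112 and 3148 CPM in lower dose 2 and 3, and at 3078, 3040 and 2967 CPM in control and 2964, 3030 and 2983 CPM at the higher dose. PDIA3 stood at 822 CPM in lower dose 1 and at 947 and 962 CPM in the other 2, with 926, 924 and 891 CPM in control and 872, 875 and 897 CPM at the higher dose. SEC61G, picked after its values were seen, was at 38.2 CPM in lower dose 1 and between 45.4 and 51.2 CPM in the other 8 libraries. Lower dose 1 was the lowest library for 11 members (32.4%), against 17.8% of all tested genes, and the highest for 0 (19.8% of all genes). Higher dose 3 was the lowest for 9 members (26.5%), against 10.9% of all genes, and the highest for 0 (10.1%). These counts were chosen after the values were seen. Of the 6 fibroblast and smooth muscle markers, 4 (COL1A1, PDGFRB, ACTA2 and THY1) were at their highest in lower dose 1, MYH11 was highest in lower dose 3 and DCN was lowest in lower dose 1. The granulosa markers FOXL2, GATA4, NR5A1 and INHBB were also highest in lower dose 1, while INHBA and CYP19A1 were lowest there. FSHR, AMH, AMHR2, INHA, NR5A2, STAR and HSD17B1 were highest in other libraries. Of the epithelial genes, CDH1 and KRT7 were highest in lower dose 1, and EPCAM, KRT8, KRT18 and KRT19 in other libraries. Lower dose 1 was also the highest library for 19.8% of all tested genes. The part of cell composition or RNA quality in the values of lower dose 1 was not tested.

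**Figure D3:**
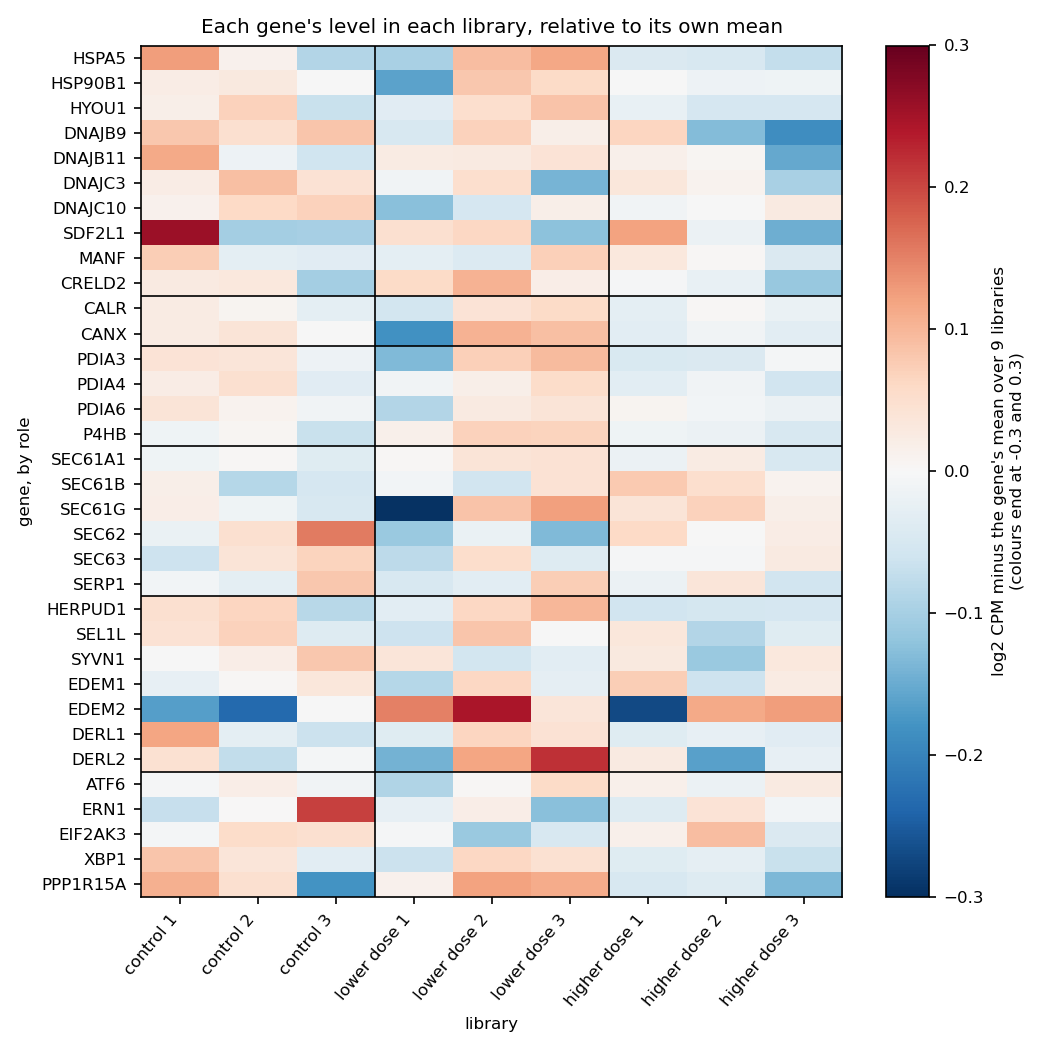
log2 CPM of each of the 34 genes in each of the 9 libraries relative to the gene's own mean, with genes ordered by role and vertical lines between groups. Lower dose 1 is below the mean for most folding genes (median -0.043) and lower dose 2 and 3 are above it (medians 0.057 and 0.043), and higher dose 3 is the lowest of its group (median -0.036).

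Many members varied with HSPA5 across libraries. HSPA5, as the usual reporter of ER stress, was taken as the reference, and Pearson's r of log2 CPM with HSPA5 over the 9 libraries was above 0 for 25 of the other 33 members (49.7% of all 12664 other genes), with a median of 0.58 against -0.0044. It was over 0.8 for 8 members, against 1.43% of all genes. None of the 33 relations passed Benjamini-Hochberg adjustment over 12664 genes (exact permutation over 362880 orders of the libraries, two-sided; called for 0% of all genes, smallest adjusted p of a member 0.222), and 13 members had an unadjusted p under 0.05 with r above 0, against 5.16% of all genes. All points share libraries and scaling, and CPM values are shares of a total, so r describes these 9 libraries only.

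The genes closest to HSPA5 came from several roles. XBP1 had an r of 0.949 and Spearman's rho of 0.867 (exact permutation p = 0.000303 for r and 0.0045 for rho, adjusted p = 0.222 and 0.281), and r was 0.939 without control 1 and lower dose 3, the 2 libraries farthest from the median of HSPA5. DERL1, a channel component of ER-associated degradation, had an r of 0.916 (rho 0.883, r = 0.890 without those 2 libraries), and CALR an r of 0.915 (rho 0.850, r = 0.915 without them). HERPUD1 (0.889), PPP1R15A (0.845), PDIA3 (0.837), HYOU1 (0.822) and PDIA6 (0.813) followed. Without the 2 libraries these 5 were at 0.856, 0.777, 0.809, 0.844 and 0.717. Their adjusted permutation p-values lay between 0.222 (PDIA6) and 0.355 (HYOU1), and rho between 0.65 (HERPUD1) and 0.98 (PDIA6).

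In HSPA5 itself, 5 libraries lay between 1531 and 1588 CPM, control 2 at 1651 CPM and 3 libraries between 1746 and 1787 CPM. The high set held control 1, lower dose 2 and lower dose 3, and the low set held lower dose 1, control 3 and the 3 higher dose libraries, so control and lower dose libraries stood in both sets. XBP1 followed the same order closely: its 4 highest libraries, at 184 to 191 CPM, were the 4 highest of HSPA5. The sets are small, with at most 5 libraries, and r within them is not given.

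The lowest values included 2 of the 3 sensors. ERN1 (r = -0.56), EIF2AK3 (r = -0.49), SYVN1 (r = -0.42) and SEC62 (r = -0.41) had the lowest r among the members, with unadjusted exact permutation p-values of 0.104, 0.181, 0.263 and 0.271, and r without the 2 libraries of -0.21, -0.50, -0.48 and -0.09. The sensor ATF6 stood at 0.49, near the median member (0.40 without the 2 libraries and 0.66 with group means removed). By role, all 4 disulfide isomerases and both lectin chaperones had an r over 0.6, and the 6 translocon genes ranged from -0.41 (SEC62) to 0.58 (SEC61G).

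The pattern did not rest on the group means or on lower dose 1. With the mean of each group removed the median r of the members was 0.61, and no value over all genes was computed for this setting. Without lower dose 1 it was 0.60, with 11 members over 0.8 against 2.65% of all genes. Counting depth moves with r: among genes of at least 100 CPM, 6 of 18 members had an r over 0.8, against 3.69% of all such genes, a subset chosen after the values were seen. The strongest relations between members other than HSPA5 were HSP90B1 with CANX (r = 0.985), HYOU1 with HERPUD1 (r = 0.968) and CANX with PDIA3 (r = 0.955), given as a description with no p. Over all 561 pairs of members the median r was only 0.24 (0.18 without lower dose 1), with 373 pairs above 0 and a lowest r of -0.76. Outside the list, the genes of smallest p were NRXN3 (r = -0.97), SREBF2 (r = -0.96), GPR135 (r = -0.96) and HEATR3 (r = 0.94), each at an adjusted p of 0.14.

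**Figure D4:**
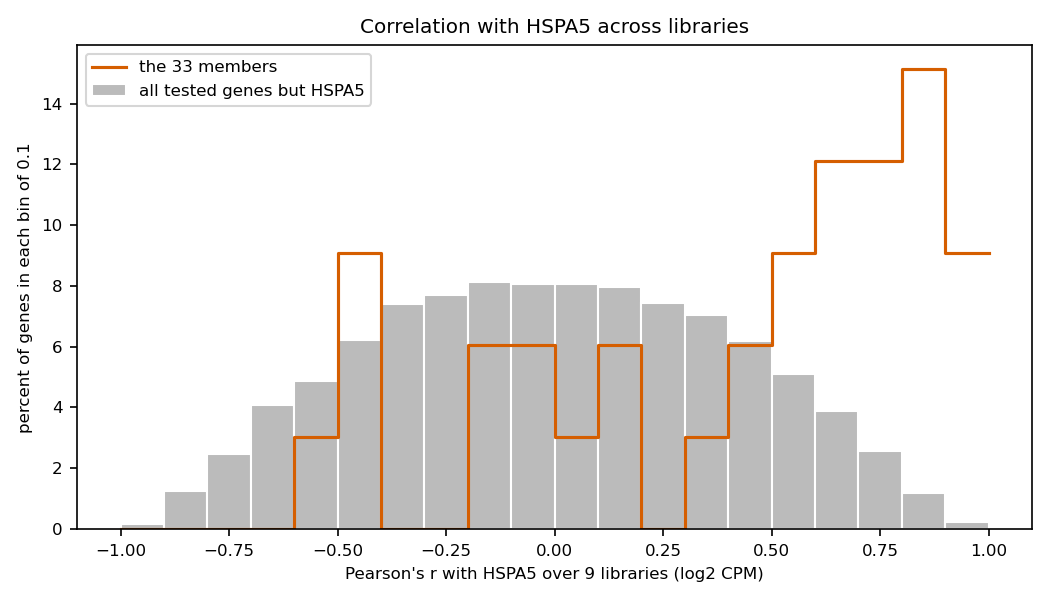
Share of genes in each bin of Pearson's r with HSPA5 over 9 libraries, for all 12664 other tested genes (grey bars) and for the 33 members (line). The grey bars centre on 0 and the members are shifted to the right, with 8 of 33 over 0.8.

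**Figure D5:**
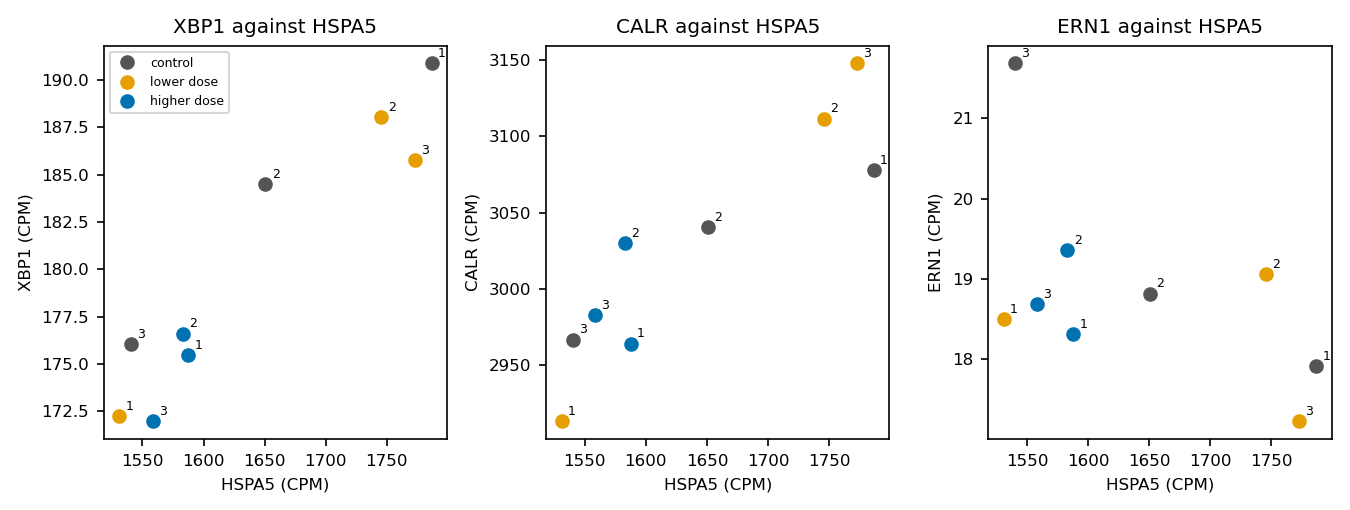
CPM of XBP1, CALR and ERN1 against CPM of HSPA5 in each library, coloured by group and numbered by replicate. XBP1 and CALR climb with HSPA5 (r = 0.949 and 0.915) with the groups intermixed, and ERN1 does not (r = -0.56).

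Since many of these genes varied with HSPA5, the promoters of the members were searched for the elements that ATF6 and XBP1 are known to bind. Windows of 300 bases, from 250 before to 50 after the RefSeq start (GRCh38.p14), were at hand for 32 members, and PDIA3 and DERL1 were not matched. Only 1 window per gene was searched and only exact matches were counted, so other starts and near matches are not covered. The ER stress response element (ERSE, CCAAT and CCACG separated by any 9 bases, either strand) was in 7 of 32 windows (21.9%), against 0.0806% of 27305 windows and 0.136% of the 10288 windows of tested genes. The related ERSE-II (ATTGG and CCACG separated by any 1 base, either strand) was in 3 (9.38%), against 0.0549% and 0.0972%. The element was originally defined on chaperone promoters including some of these, so the share is not independent of the list, and a match is a description of letters, not of binding.

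The ERSE windows were those of HSPA5, HSP90B1 (which holds 2 matches), CALR, CANX, CRELD2, SERP1 and XBP1, and the ERSE-II windows were those of HERPUD1, HYOU1 (2 matches) and SDF2L1. The 7 below show the shared letters in the reporter HSPA5, in 2 genes that followed it closely (XBP1, CALR), in the lectin CANX, in HERPUD1 and SDF2L1 for the ERSE-II form, and in SERP1, whose r with HSPA5 was 0.13. They lie at chr9:125241376-125241424 (HSPA5, minus strand), chr22:28800588-28800636 (XBP1, minus), chr19:12938369-12938417 (CALR, plus), chr5:179698763-179698811 (CANX, plus), chr3:150546695-150546743 (SERP1, minus), chr16:56932010-56932050 (HERPUD1, plus) and chr22:21642099-21642139 (SDF2L1, plus). Each is written 5′ to 3′ on the strand of its gene, with the element in capitals, so that CALR, SERP1 and SDF2L1 carry it in the opposite orientation.
HSPA5: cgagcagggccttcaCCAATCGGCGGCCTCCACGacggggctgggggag
XBP1: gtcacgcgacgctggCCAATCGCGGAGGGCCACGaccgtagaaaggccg
CALR: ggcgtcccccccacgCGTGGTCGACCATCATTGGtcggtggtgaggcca
CANX: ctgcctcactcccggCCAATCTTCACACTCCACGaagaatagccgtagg
SERP1: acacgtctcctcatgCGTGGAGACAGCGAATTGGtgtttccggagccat
HERPUD1: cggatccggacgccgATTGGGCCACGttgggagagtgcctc
SDF2L1: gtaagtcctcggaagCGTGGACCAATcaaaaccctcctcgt

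In HSPA5 and XBP1 the element begins 66 and 52 bases before the start, on the gene's strand, and in CALR and SERP1 it begins 225 and 232 bases before it. The 9 members other than HSPA5 with either element had a median r with HSPA5 of 0.76 (from 0.13 for SERP1 to 0.95 for XBP1), and the 22 members whose window lacks both had a median of 0.48 (from -0.56 for ERN1 to 0.85 for PPP1R15A). All 10 members with an element had a log2 fold change below 0 at the higher dose, as did 16 of the 22 others; at the lower dose 5 of the 10 and 14 of the 22 were below 0 (medians 0.0012 and -0.014). These splits were made with the correlations and fold changes known, and carry no test. DERL1 (r = 0.916), PDIA3, PPP1R15A and PDIA6 were close to HSPA5 with no element in the window or no window.

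Another motif, the unfolded protein response element TGACGTGG (either strand), was in 3 of 32 windows (9.38%, against 0.795%, or 0.923% of windows of tested genes), those of DNAJC10, SEC62 and HYOU1. In HYOU1 it overlaps the upstream ERSE-II match. The motif TGATGNAA, which resembles sites bound by ATF4 and C/EBP factors, was in 1 window, that of HERPUD1 (3.12%), against 3.67% of all windows and 1.76% of those of tested genes.

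Further genes of the pathway, in 6 lists of 123 genes chosen with earlier results of these data known, also held no called gene. Of these, 121 were tested, and edgeR called 0 in each comparison, with 9 at an unadjusted p under 0.05 at the lower dose (3 higher, 6 lower), 2 at the higher dose and 9 between doses. PDIA2 and FKBP2 were too scarce to test. The shares in all tested genes were the 6.08%, 2.35% and 5.64% given above.

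Of 34 other folding factors, 3 were lower at the lower dose at an unadjusted p under 0.05, and 1 at the higher dose. TMX3, a membrane-bound disulfide isomerase, stood at 90.7, 85.7 and 94.4 CPM in control and at 79.1, 83.0 and 77.5 CPM at the lower dose (log2 fold change -0.18 ± 0.06, unadjusted p = 0.0046, edgeR adjusted p = 0.764), and the prolyl isomerase FKBP14 had a log2 fold change of -0.17 ± 0.06. ERO1B, an oxidase that reoxidises disulfide isomerases, had the largest difference among the named pathway genes. It was at 13.7, 12.4 and 13.2 CPM in control, 10.9, 12.0 and 11.5 CPM at the lower dose and 9.36, 10.6 and 11.4 CPM at the higher dose, where all libraries were below control. Its log2 fold change was -0.32 ± 0.10 at the higher dose (SE, unadjusted p = 0.0046, edgeR adjusted p = 1) and -0.19 ± 0.10 at the lower dose. CNPY2 was at 0.09 ± 0.05 at the higher dose.

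Among 32 genes of signal recognition, signal peptidase and glycan transfer, SRP14, a subunit of the signal recognition particle, was at 167, 163 and 165 CPM in control, 173, 171 and 175 CPM at the lower dose and 177, 177 and 181 CPM at the higher dose. All treated libraries were above all controls, with log2 fold changes of 0.07 ± 0.04 and 0.11 ± 0.04 (unadjusted p = 0.116 and 0.0166, edgeR adjusted p = 0.808 and 1). The signal peptidase subunit SPCS3 was at -0.11 ± 0.04 and -0.09 ± 0.04, and TRAM1, which assists insertion at the channel, at -0.13 ± 0.05 at the lower dose. Of 24 further degradation genes, NPLOC4 and UFD1, partners in extracting proteins from the ER, were at 0.11 ± 0.05 and 0.14 ± 0.07 at the lower dose, and the ligase RNF5 and ERLIN2 were at 0.10 ± 0.06 each at the higher dose.

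None of the 14 genes of the PERK and ATF4 branch was called, and their directions were unevenly split. At the lower dose 11 of 14 were above 0 (median 0.08 on the log2 scale) and 3 below, against 48.1% of all tested genes below 0 (median 0.0045). At the higher dose 10 of 14 were below 0 (median -0.02), against 50.2% of all tested genes (median -0.00021). Both comparisons used the same 3 control libraries. Between the doses 12 of 14 were below 0, against 50.5% of all tested genes. Of the 14, 4 had an unadjusted p under 0.05 between doses (against 5.64% of all tested genes), all lower at the higher dose: SESN2, CEBPB, ATF3 and TRIB3. SESN2, a stress-induced inhibitor of mTORC1 signalling, was at 43.7, 49.6 and 43.4 CPM in control, 45.05, 53.3 and 51.3 CPM at the lower dose and 42.4, 44.9 and 38.5 CPM at the higher dose, a difference between doses of -0.25 ± 0.08 on the log2 scale (unadjusted p = 0.0042, edgeR adjusted p = 0.85). CEBPB was at 0.12 ± 0.06 and CHAC1 at 0.19 ± 0.10 at the lower dose against control, and PPP1R15B at -0.07 ± 0.05 at the higher dose.

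The transcription factor ATF4 itself stood at 501, 507 and 476 CPM in control, 518, 514 and 507 CPM at the lower dose and 507, 498 and 483 CPM at the higher dose. DDIT3 (CHOP), its target in prolonged stress, was at 64.9, 55.2 and 53.2 CPM in control, 53.8, 67.8 and 68.9 CPM at the lower dose and 60.1, 57.0 and 51.1 CPM at the higher dose, with lower dose 1 again apart from its group. TRIB3 was at 112, 110.1 and 84.7 CPM in control, 111, 116 and 109 CPM at the lower dose and 111, 96.7 and 86.1 CPM at the higher dose. ATF3 was at 12.7 ± 0.855 CPM in control, 14.4 ± 0.791 at the lower dose and 12.5 ± 1.11 at the higher dose (SD, n = 3).

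Of 14 other sensors, proteases and ER-bound transcription factors, NFYB, a subunit of the factor that binds CCAAT, had a log2 fold change of -0.17 ± 0.06 at the lower dose and BAX of 0.10 ± 0.06, and at the higher dose ATF6B and CREB3L1 were at -0.08 ± 0.05 and -0.07 ± 0.05. The KDEL receptors, which return ER residents such as HSPA5 from the Golgi, stayed close to control: at the lower dose KDELR2 was at -0.06 ± 0.04 and KDELR3 at -0.03 ± 0.06, and at the higher dose KDELR1 was at -0.04 ± 0.04 and KDELR2 at -0.03 ± 0.04.

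Counting limits some members. In GENCODE release 29, 59.5% of the PDIA3 transcript has a copy of at least 95% identity elsewhere, mostly in the pseudogene PDIA3P1, so its counts are uncertain where reads could be split. The exons of PDIA6 overlap ATP6V1C2 on the opposite strand over 40.1% of its transcript, and 20 of 35 listed members have some opposite-strand exon overlap. The strand setting of the counting is not given in the sources used here, so reads of such neighbours cannot be told apart.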

How the data were processed

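For the 9 libraries the authors deposited unnormalized read counts, keyed by gene symbol, and FPKM of the same genes. The submitters' processing notes name build hg38 and the tools Trimmomatic, HTSeq and DESeq; no version, aligner, annotation or strand setting is given in the sources used here. Deposited FPKM proved to be a rescaling of the counts, since the gene length they imply was constant within a relative 4.2e-09 over 11053 genes with 50 or more counts per library. FPKM was used for levels between genes and in alternatives.

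Counts were filtered with filterByExpr in edgeR 4.0.16 (minimum count 10, total 15), leaving 12665 genes, scaled by TMM and fitted over all 9 libraries with the quasi-likelihood F-test, two-sided, and p-values were adjusted by Benjamini-Hochberg across these genes. The common biological coefficient of variation was 5.39%. Correlations used log2 CPM with a prior count of 2. Counting error alone lets a listed 0 hide up to 3 counts, which is 0.158 CPM in the smallest library. DESeq2 1.42.0, limma 3.58.1 on log2(FPKM + 1) and log2(FPKM + 0.1), other filters and size factors, and leaving out each library were alternatives. The pipelines were tested on simulated data. Motifs were searched in RefSeq promoter windows, and copies with blastn 2.17.0.

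The members and lists were chosen with earlier results of these data known. Values in every library are given for HSPA5, HSP90B1, XBP1 and the sensors, the 5 members of smallest p in each comparison, those not overlapping with control and the 5 of highest FPKM; each pathway list gives its 2 genes of smallest p against control, plus ATF4, DDIT3, ATF3 and TRIB3.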

Additional observations from a re-analysis of the deposited data

How the results depend on the processing

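The number of members called was 0 in each comparison and for the correlation with HSPA5 under each alternative run. For the correlation, the smallest possible exact permutation p was 2.76e-06 with 9 libraries and is larger with fewer. After adjustment over 12664 genes a call was hardly reachable with libraries left out, so the 0 in those settings shows no stability. No member's log2 fold change passed the adjusted threshold. Over 1734 alternative values for members, the smallest adjusted p was 0.355 (SEC62, lower dose, without control 1). Of these values 107 changed sign, none with a log2 fold change over 0.059 in size. Counts at an unadjusted p under 0.05 moved: at the lower dose 2 became 1 with no count filter, 1 with limma on log2(FPKM + 0.1), 1 with only the 2 groups compared, and 0 to 3 when 1 library was left out. At the higher dose 0 became 1 with limma on log2(FPKM + 0.1), and 0 to 2 with 1 library left out. Between doses 2 became 1 with limma on log2(FPKM + 1), 1 with limma on log2(FPKM + 0.1), and 0 to 10 with 1 library left out. The genes could change where the count held. Between doses the 2 members of DESeq2 were PPP1R15A and P4HB, without SEC62. At the lower dose the 2 of limma on log2(FPKM + 1) were SEC62 and EDEM2, without DNAJC10. The number of members below 0 at the lower dose was 9 to 26 with 1 library left out. The fits with 1 library left out all hold the same number of libraries, and the cause of these changes was not tested. With no count filter edgeR called 6 of all genes at the lower dose, 3 at the higher dose and 4 between doses, none of them members.

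Replicates share numbers across groups. After group means were removed, same-numbered libraries correlated at -0.01 to 0.16 and different-numbered ones at -0.11 to 0.057. In the higher dose against control the same-numbered values were 0.082, 0.037 and 0.16. The labels state no pairing, and the numbers were not taken as pairs in the main fit. With the replicate number as a block, members at an unadjusted p under 0.05 remained 2, 0 and 2 in number. The shares of all tested genes were then 7.67%, 2.71% and 7.04%. With the block 20, 28 and 22 members were below 0, and medians were -0.0097, -0.039 and -0.031. The median r of the members with HSPA5 was 0.74 with the block. Removing means leaves fewer degrees of freedom and no value over all genes was computed, so 0.74 is not read as closer variation. No permutation count was made for the block or with group means removed, since the libraries are then no longer exchangeable.

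With 3 libraries a group the intervals hold differences of several percent or more. At the higher dose they ran from 0.874-fold to 1.03-fold for HSPA5 and from 0.853-fold to 1.09-fold for ERN1. For EDEM2 counting alone gives a coefficient of variation of 12.9%, against 12.8% measured.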
